A study of Arabidopsis thaliana with 24 samples.

Results

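The 28 genes described here are encoded in the chloroplast genome of *Arabidopsis thaliana* and serve mainly its own transcription and translation. The rule goes by name and genome and takes the plastid copies of genes for RNA polymerase subunits (4 genes), small-subunit (10) and large-subunit (9) ribosomal proteins, together with *matK*, *clpP*, *accD*, *ycf1* and *ycf2*. They were read by 29 of the 22810 probe sets of the ATH1 array, on which 13356 genes are listed with a probe set of their own. *rps12* has 2 probe sets, of which the brighter one stands for the gene. For 6 members (*rps7*, *rps12*, *rpl2*, *rpl23*, *ycf1* and *ycf2*) the probe annotation holds 2 entries of the same name, and signals of such copies cannot be told apart. Another 48 plastid-encoded genes, mostly of photosynthesis, were measured on the same arrays.

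Chloroplasts keep a bacterial type of gene expression. A multisubunit RNA polymerase, whose core subunits are encoded by the plastid genes *rpoA*, *rpoB*, *rpoC1* and *rpoC2*, works beside a phage-type polymerase that is encoded in the nucleus, and many plastid genes are transcribed together as long polycistronic RNAs that are then cut and processed. Ribosomes of the bacterial type, built from plastid-encoded and nucleus-encoded proteins, translate these messages. *matK* encodes a maturase that assists intron splicing, *clpP* a subunit of the Clp protease, and *accD* a subunit of the acetyl-CoA carboxylase that starts fatty acid synthesis. *ycf1* encodes a component of the protein import machinery of the inner envelope (TIC214), and *ycf2* an ATPase of the associated import motor. Most plastid messages lack the stable poly(A) tail on which the priming step of one-cycle array labelling depends.

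The mutant plants were *sdg8-5*, formerly named *cli186*, in which a deletion removes all of SDG8, a histone H3 lysine 36 methyltransferase, with its promoter and a part of the neighbouring gene AT1G77310. The WT plants were the unmutagenized parent, and both lines carry the pASN1-HPT2 transgene of the mutant screen. The mutant is a single line, and SDG8 has no probe set listed in the annotation used here, so the genotypes were not checked through it. Plants grew hydroponically for 3 weeks, which the deposited growth protocol gives as the start of flowering, and were kept without sucrose in darkness for 24 h. They then received 1% sucrose (+C) or none (-C), in light of 70 µE (+L) or in darkness (-L), for 2 h. Shoot RNA of every condition (8 in all) was hybridized to 3 arrays, which gave 12 *sdg8-5* and 12 WT arrays.

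All 29 probe sets passed the filter on low values (at least 40 on at least 1 array), and none was below 40 on any array. Their intensities, MAS5 signals scaled to a trimmed mean of 500 on each array, lay between 58.4 and 24111. The brightest array spots reached at least 28491 on every array. The median intensity of all probe sets was 180.5 to 223.3 on *sdg8-5* arrays and 186.8 to 221.7 on WT arrays. The nuclear shoot genes *LHCB4.1* and *LHCB4.2*, for light-harvesting proteins, were bright on every array (9732 to 21093 and 4529 to 13763), and *LHCB4.3* read 110.7 to 774.5. *LHCB4.2* (-0.37 ± 0.09) and *LHCB4.3* (-0.53 ± 0.11) were lower in *sdg8-5* (limma FDR = 0.00836 and 0.00249), *LHCB4.1* did not pass (0.09 ± 0.08), and their part in the results below was not tested. The flower genes *AMS* and AT5G07230 stayed at or below 60.0 and 45.6. The root gene *EXPA7* did not exceed 157.1, whereas *PYK10*, also known from roots, lay between 3406 and 8568. Intensities of different probe sets do not rank the amounts of their transcripts.

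Of the 3 factors, genotype had the most calls among these genes, 9 of the 28 at an FDR under 0.05, where 19.7% of all 21552 probe sets tested passed (limma, Benjamini-Hochberg adjustment over all probe sets). With genotype averaged over the 4 treatments, 7 members were higher in *sdg8-5* than in WT (25% of the 28, against 9.24% of all probe sets) and 2 were lower (7.14% against 10.5%). At an unadjusted p under 0.05 the numbers were 14 higher and 2 lower, against 3432 higher and 3368 lower of the 21552 probe sets. The log2 change was positive for 20 members and negative for 8, with a median of 0.19 over the members and 0.01 over all probe sets. The 2 genes that fell were *ycf2* and *rps14*. The 7 genes that rose were *rps19*, *rpl22*, *rps3*, *rpl16*, *rpl14*, *rpl36* and *rpoA*, which are neighbours in the plastid genome.

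**Figure D1:**
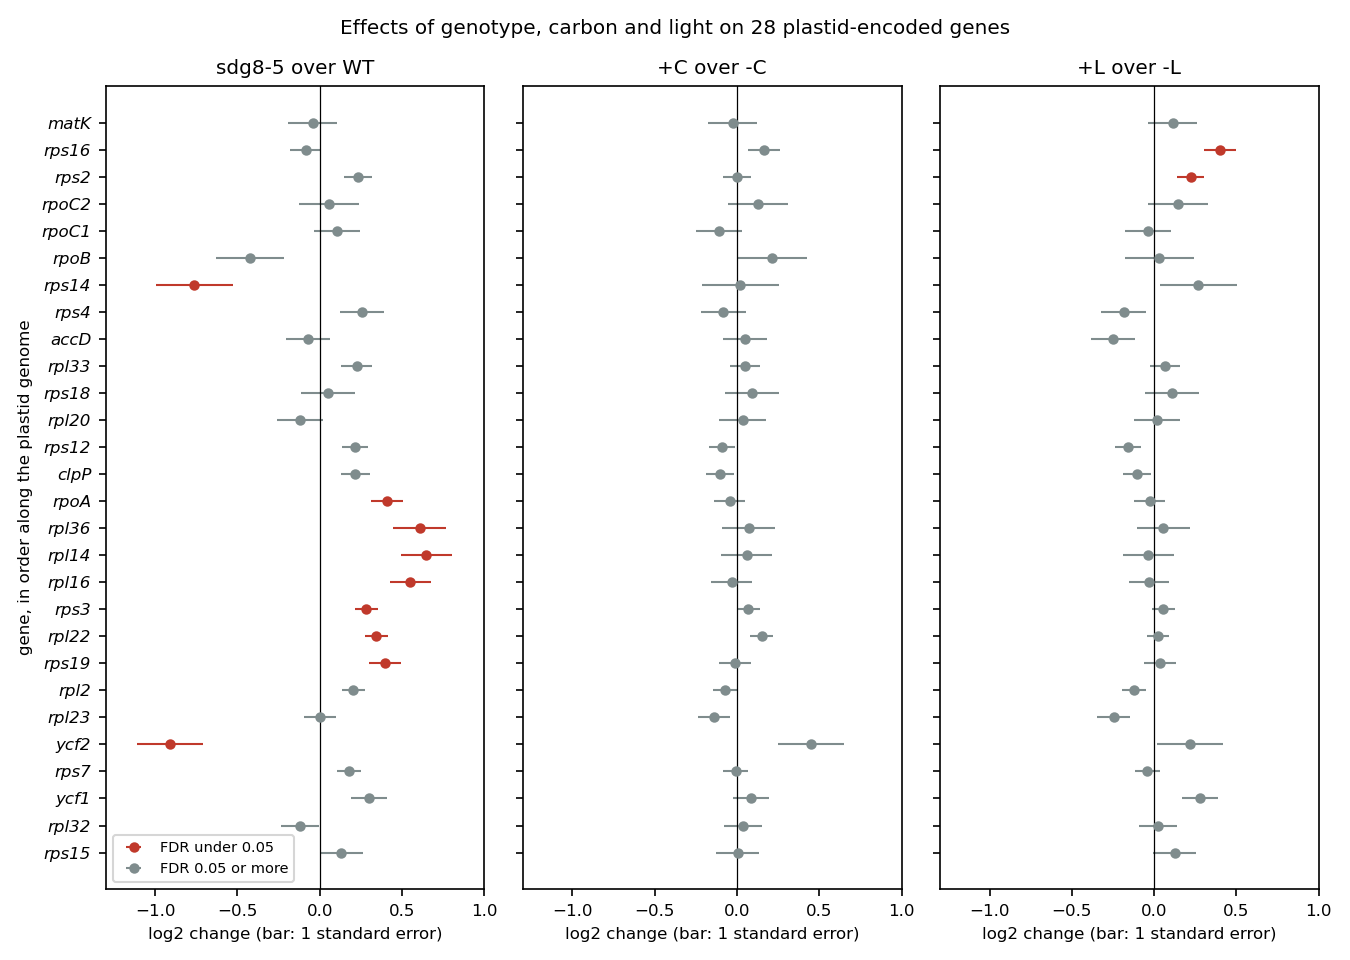
Log2 change of each of the 28 genes for sdg8-5 over WT, +C over -C and +L over -L (x axes), with genes in genome order (y axis), points for the fitted change, bars for 1 standard error and red for an FDR under 0.05. For genotype, 20 genes stand to the right of 0 and 8 to the left. Of these, 7 neighbouring genes passed on the right and rps14 and ycf2 on the left. No gene passed for carbon, and rps16 and rps2 passed for light.

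In RefSeq's order of genes (assembly TAIR10.1), the measured genes of this stretch come in the order *rpoA*, *rpl36*, *rpl14*, *rpl16*, *rps3*, *rpl22* and *rps19*. In plants this cluster, which extends to *rpl2* and *rpl23* on the ribosomal side, is known to be transcribed as an operon that resembles the ribosomal protein operons of bacteria. The stretch was noticed from its values, so its members are described and not tested as a group. The mean log2 intensity of its 7 measured genes lay between 12.09 and 12.43 on the *sdg8-5* arrays (median 12.28) and between 11.54 and 12.09 on the WT arrays (median 11.79). Every *sdg8-5* array stood above every WT array, the closest pair being 12.091 and 12.085. The 7 genes had each been called higher before they were averaged, so their choice favoured this separation. For the other 21 members the mean log2 intensity was 11.32 to 11.76 on the *sdg8-5* arrays and 11.24 to 11.74 on the WT arrays. These overlap over almost the whole range. Of these 21 members 13 had positive and 8 negative changes, which partly offset each other in this mean. At an unadjusted p under 0.05 (limma), 7 of them were higher and 2 lower, against 3432 higher and 3368 lower of the 21552 probe sets.

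*rpl14*, encoding a protein of the large ribosomal subunit, had the largest increase of all members. Its intensities were 2376 to 4611 (median 2990) on *sdg8-5* arrays and 1358 to 2943 (median 1834.5) on WT arrays. The change was 0.65 ± 0.16 on the log2 scale (1.57-fold; ± is the standard error of the fit here and below, n = 12 arrays each; limma, FDR = 0.00646). In -C-L the *sdg8-5* arrays had 3859, 3251 and 2514, against 2608, 1667 and 1358 in WT. The lowest *sdg8-5* array of that treatment was thus below the highest WT array.

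*rpl36*, for a small protein of the large subunit, lay between 989.7 and 2375 (median 1969) on *sdg8-5* arrays and between 794.7 and 1637 (median 1136) on WT arrays, a change of 0.61 ± 0.16 (1.52-fold, limma FDR = 0.0125). *rpl16*, for another large-subunit protein, had 5621 to 8930 (median 7551) on *sdg8-5* arrays and 3476 to 8090 (median 5200.4) on WT arrays (0.55 ± 0.12, 1.46-fold, limma FDR = 0.00361). In -C-L its *sdg8-5* intensities were 7310.3, 8930.1 and 6653, against 5838, 5206 and 3476 in WT. The *sdg8-5* arrays were above all WT arrays there, as in -C+L and +C+L. In +C-L the *sdg8-5* arrays had 7802, 7300.0 and 7724, and 1 WT array, at 8090.4, was above them.

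*rpl22*, also of the large subunit, had the lowest FDR of all members. It read 3924 to 6075 (median 4630.4) on *sdg8-5* arrays and 2978 to 4545 (median 3873) on WT arrays, with a change of 0.34 ± 0.07 (1.27-fold, limma FDR = 0.00167). Its *sdg8-5* arrays were above all WT arrays in 3 treatments but not in +C+L, where they gave 5042, 4439 and 3924, against 4545, 4105 and 4235 in WT. Separation of all arrays upward in at least 3 of the 4 treatments was seen for *rpl16* and *rpl22* among the 28 members and for 2.95% of all probe sets.

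Of the 2 small-subunit genes of the stretch, *rps19* was at 7671 to 13053 (median 9839) on *sdg8-5* arrays and 5862 to 8873 (median 7623) on WT arrays (0.39 ± 0.10, 1.31-fold, limma FDR = 0.00753). *rps3* was at 6362 to 8814 (median 7592) on *sdg8-5* arrays and 4900.3 to 7047 (median 6399.6) on WT arrays (0.28 ± 0.07, 1.22-fold, limma FDR = 0.0083). Both were separated completely in 2 treatments, *rps19* in +C-L and -C+L and *rps3* in +C+L and +C-L. Over all probe sets, complete separation upward was seen for 9.8% in +C+L, 9.73% in +C-L, 10.3% in -C+L and 9.01% in -C-L. Also in the stretch, *rpl36* and *rpoA* were separated upward in 1 treatment each and *rpl14* in 0. Such separation was not limited to the stretch. Outside it, *rps2*, *rpl2* and *ycf1* were separated upward in 2 treatments each, and *rps12*, *clpP* and *rpl33* in 1.

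At the end of the stretch, *rpoA*, which encodes the alpha subunit of the plastid polymerase, read 4073 to 6493 (median 4755) on *sdg8-5* arrays and 3219 to 5211 (median 3507) on WT arrays. The change was 0.41 ± 0.10 (1.33-fold, limma FDR = 0.00535). In -C-L its *sdg8-5* arrays had 4817, 4693 and 6383, all above 3362, 3765 and 3426 in WT. In +C+L the *sdg8-5* values of 4193, 4583 and 4595 fell inside the WT range, which 1 array at 4599 set.

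**Figure D2:**
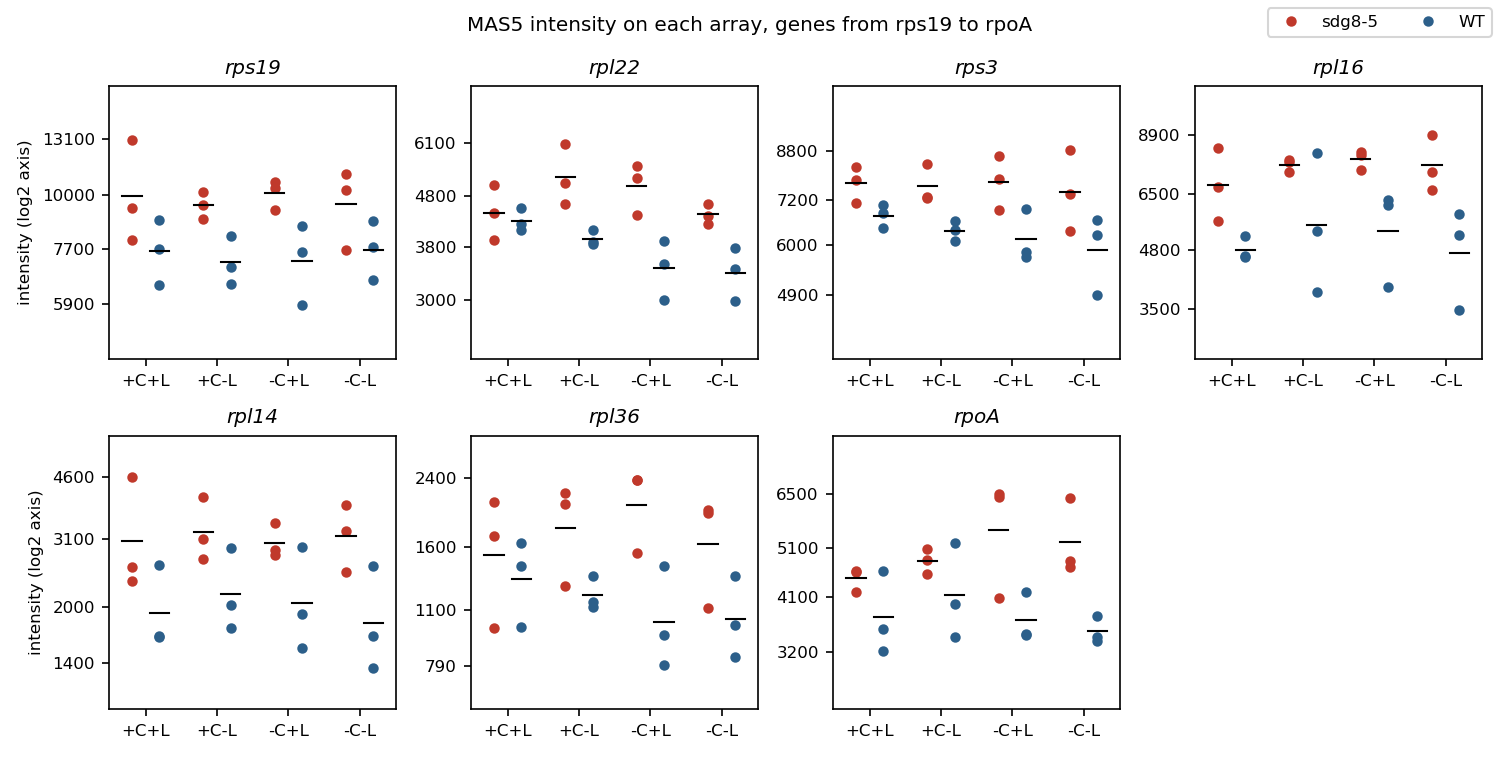
MAS5 intensity (y axes, log2 scale) of the 7 neighbouring genes on each array in the 4 treatments (x axes), sdg8-5 in red left of WT in blue, with black lines for the mean of the log2 values. The sdg8-5 mean was above the WT mean in every panel and treatment, which the choice of genes called higher over the 4 treatments favoured. rpl16 and rpl22 separated completely in 3 treatments each.

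In the fit used here the genes on either side of the stretch did not pass as higher. On the ribosomal side, *rpl2*, the next gene and also of the large subunit, had 16801 to 24111 (median 19825) on *sdg8-5* arrays and 13635 to 21103 (median 18073) on WT arrays, with a change of 0.20 ± 0.07 that did not pass (limma FDR = 0.0543). It did pass with the filter at 100, with centring on the array median and with trend and robust estimation. Both forms of the three-way ANOVA also called it, as did fits without WT +C-L replicate 1, WT +C+L replicate 1 or WT -C+L replicate 2. The edge of the stretch thus depended on the setting. *rpl23*, beyond *rpl2*, had a change of 0.00 ± 0.10. On the *rpoA* side the next gene, *petD*, for a subunit of the cytochrome b6f complex, was lower in *sdg8-5* (-0.57 ± 0.18, limma FDR = 0.0331). The remaining polymerase genes, *rpoB*, *rpoC1* and *rpoC2*, which lie elsewhere in the genome next to *rps2*, did not pass. Their changes were -0.42 ± 0.21, 0.11 ± 0.14 and 0.06 ± 0.18, with *rpoB* at 105.8 to 236.3 on *sdg8-5* arrays and 90.1 to 499.3 on WT arrays.

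**Figure D3:**
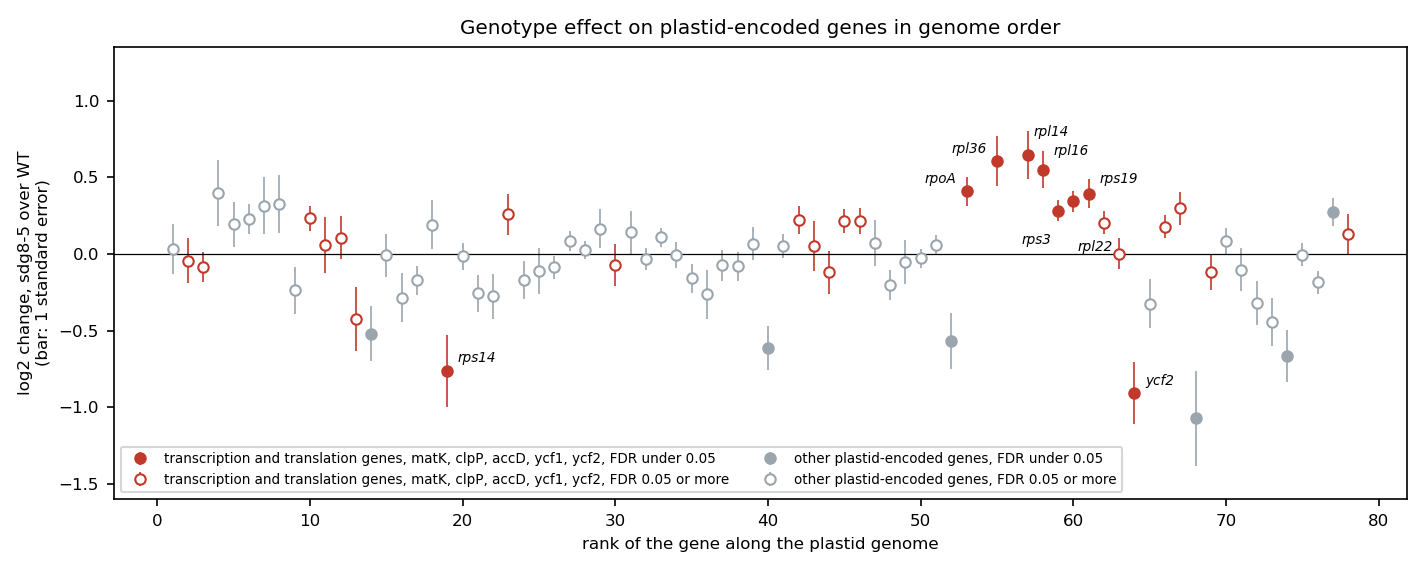
Log2 change of sdg8-5 over WT with 1 standard error (y axis) for plastid genes by their rank in the genome (x axis), the 28 members in red, 48 other plastid genes in grey, and filled points for an FDR under 0.05. The 7 higher members lie together from rpoA to rps19, while the lower genes are scattered.

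Within single treatments, none of the 28 members passed for genotype, where 2.21% of all probe sets did in +C+L, 4.55% in +C-L, 2.08% in -C+L and 4.25% in -C-L. At an unadjusted p under 0.05, 1, 1, 7 and 9 members were higher in these treatments and 3, 2, 0 and 1 lower. Of the 21552 probe sets, 1492, 1670, 1390 and 1555 were higher at that p and 1632, 2222, 1464 and 1968 lower. In -C+L, 1 or 2 members were higher in 11 of 38 alternatives, among them the fits without *sdg8-5* -C+L replicate 1 (2 members) and without *sdg8-5* +C-L replicate 1 or 3, *sdg8-5* +C+L replicate 3, WT -C+L replicate 2 or WT -C-L replicate 3 (1 each). In the other treatments 1 member passed in a few alternatives, lower in +C+L without WT +C+L replicate 1 or without replicate number 1, lower in +C-L without replicate number 1, higher in +C-L with centring on the array median, and higher in -C-L with the replicate block or the bioC block. The 7 neighbours had positive changes in all 4 treatments, which their call on the average of these treatments favoured. Their sizes were 0.05 to 0.66 in +C+L and 0.32 to 0.81 in -C-L, and *rpl36* in -C+L had the largest, 1.00 ± 0.32 (limma FDR = 0.136). No member had a genotype by light interaction (0.0371% of all probe sets at an FDR under 0.15) or a genotype by carbon interaction (0.00464%). At an unadjusted p under 0.05 there were 0 members for either. Of the 21552 probe sets, 881 were then positive and 494 negative for genotype by light, and 391 and 610 for genotype by carbon. As no member passed for either interaction, the sizes in different treatments are given side by side and are not called different.

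**Figure D4:**
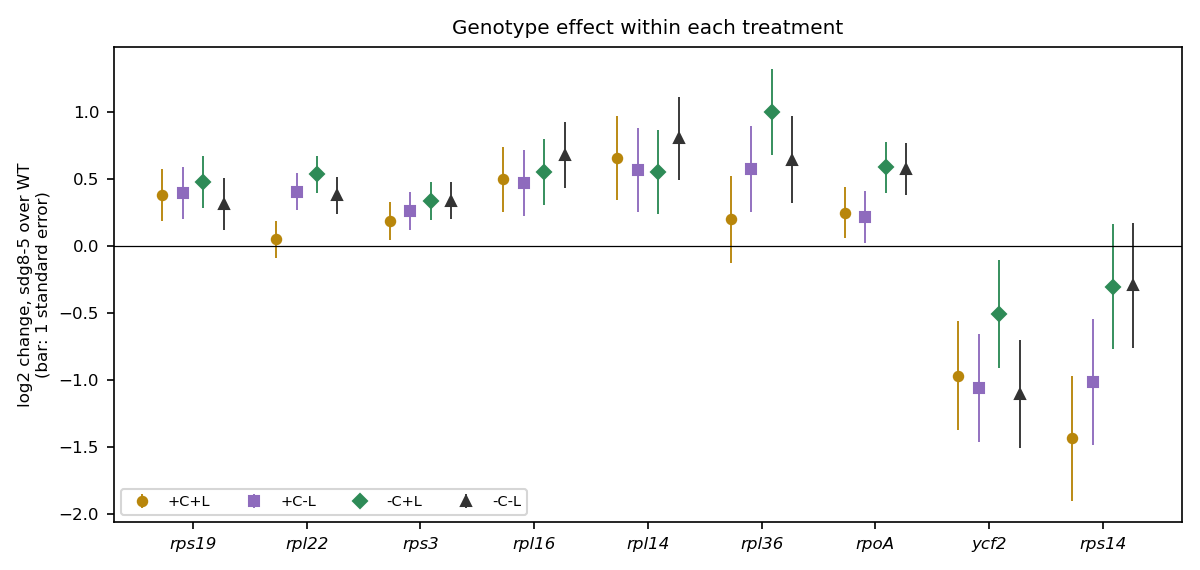
Log2 change of sdg8-5 over WT with 1 standard error (y axis) in each treatment (symbols) for the 9 genes past the threshold (x axis). All points of the 7 neighbouring genes are above 0 and all points of ycf2 and rps14 below, and no single point passed an FDR of 0.05.

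Of the 2 genes that fell, *ycf2* was at 58.4 to 163.8 (median 77.2) on *sdg8-5* arrays and 76.4 to 301.5 (median 137.3) on WT arrays. Its change was -0.91 ± 0.20 (1.88-fold lower, limma FDR = 0.00354). In +C-L the *sdg8-5* arrays had 60.4, 74.6 and 79.8, below 140.1, 185.6 and 124.8 in WT, and in -C-L 59.8, 83.4 and 69.2, below 92.9, 134.5 and 274.0. The arrays overlapped in both light treatments. Complete separation downward was seen for 12.2% of all probe sets in +C-L and 10.5% in -C-L.

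*rps14*, a small-subunit gene located beside *psaB*, read 128.9 to 289.4 (median 199.3) on *sdg8-5* arrays and 174.7 to 805.9 (median 265.9) on WT arrays (-0.76 ± 0.23, 1.70-fold lower, limma FDR = 0.0280). In +C+L it had 148.4, 206.9 and 158.3 in *sdg8-5*, against 174.7, 683.8 and 805.9 in WT. In -C-L the groups lay close, at 242.8, 193.2 and 186.7 in *sdg8-5* and 244.9, 286.8 and 228.9 in WT. *rps14* had the largest spread between arrays of a condition among the members (residual SD of 0.60 on the log2 scale), followed by *rpoB* (0.53) and *ycf2* (0.51), and *rps3* and *rpl22* had the smallest, about 0.15 each.

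The other members changed less than their error allowed to call. Just outside the threshold were *rpl2*, *rps2* (0.23 ± 0.08, limma FDR = 0.0586), *rps12* (0.21 ± 0.08, 0.0650) and *ycf1* (0.30 ± 0.11, 0.0652). The other probe set of *rps12* gave 0.33 ± 0.12 (limma FDR = 0.0520). *clpP* was at 10602 to 15817 (median 12751) on *sdg8-5* arrays and 7428 to 12617 (median 11167) on WT arrays (0.22 ± 0.09, limma FDR = 0.0853), and *rpl33* (0.22 ± 0.09) and *rps4* (0.26 ± 0.14) had changes of similar size. *rps7*, of the small subunit, had 17152 to 22300 (median 18920) on *sdg8-5* arrays and 13320 to 20199 (median 16996) on WT arrays (0.18 ± 0.07, limma FDR = 0.106). These groups overlap, with the higher median in *sdg8-5*. *matK* spanned 6792 to 16640 on *sdg8-5* arrays and 6616 to 15044 on WT arrays. Near 0 were *matK* (-0.04 ± 0.15), *accD* (-0.07 ± 0.13), *rps16* (-0.09 ± 0.10), *rps18* (0.05 ± 0.16), *rpl20* (-0.12 ± 0.14), *rpl32* (-0.12 ± 0.12) and *rps15* (0.13 ± 0.13). Over the 19 members that did not pass, the 95% intervals of the change ran at most from -0.86 to 0.54.

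The other 48 plastid-encoded genes had 1 higher call and 5 lower ones in *sdg8-5*, with a median change of -0.04. These are 2.08% and 10.4% of the 48, against 9.24% and 10.5% of all probe sets. Among the lower genes were *petG* (-0.61 ± 0.14), *ndhG* (-0.67 ± 0.17), *ndhF* (-1.07 ± 0.31) and *petD*, for subunits of the NAD(P)H dehydrogenase and the cytochrome b6f complex. The 1 higher gene, *ndhH* (1.21-fold), also encodes a subunit of the NAD(P)H dehydrogenase. The mean log2 intensity of all 48 was 11.40 to 11.90 on *sdg8-5* arrays and 11.39 to 11.93 on WT arrays. In whole shoots, fewer plastids or cells and less RNA in each cannot be told apart.

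Signals of the arrays themselves moved with genotype. The 25S rRNA control, which reads a cytosolic ribosomal RNA without a poly(A) tail, was at 498.1 to 15336 (median 6296) on *sdg8-5* arrays and 371.0 to 8823 (median 892) on WT arrays, a log2 change of 1.56. With its log2 signal as a covariate, 0 of the 9 genotype calls remained, the calls over all probe sets numbered 1367, against 4255 without it, and the median change of the members was 0.10, against 0.19. *rpl36* then had 0.75 (limma FDR = 0.111), *rpl14* 0.56 (0.231) and *rpoA* 0.25 (0.379), and *ycf2* had -0.64 (0.285). The control also differed strongly by light, and its part in the genotype effect was not tested further.

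The arrays were ranked by the bacterial spike-in control bioC, added before hybridization, and cut at the middle into 2 groups of 12. The cut lay between signals of 1374 and 1572. The group of higher signal held 8 *sdg8-5* and 4 WT arrays. All arrays with replicate number 1 were in the lower group, all with number 3 in the higher one, and of number 2 the *sdg8-5* arrays were in the higher and the WT arrays in the lower one. With this group as a block all 9 calls remained, with changes of 0.31 to 0.81 for the 7 neighbours. Within the lower group 0 of the 9 passed, and within the higher group *rpl14* (0.76, limma FDR = 0.0106) and *rpl36* (0.59, 0.0139) did, while all 9 kept their direction in both. The fits within a group held genotype, carbon and light without interactions, unlike the main fit.

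Calls were lost when arrays were left out. Without the 8 arrays of number 2, none of the 9 genotype calls remained. The changes were then 0.31 to 0.70 for the 7 neighbours, with FDR values of 0.0699 for *rpl22* to 0.375 for *rpl36*, and -0.86 for *ycf2*. Over all probe sets the number of genotype calls was 1526 in that fit and 4255 with all arrays. Within number 2 the bioC group coincided with genotype, and the part of this in the lost calls was not tested. Without number 3, *rpl22*, *rps19* and *ycf2* remained, and without number 1 all but *rps19* and *rps3*. Leaving out 1 array at a time kept all 7 higher genes and *ycf2*. *rps14* was lost in 4 of these 24 fits, those without WT -C+L replicate 1 (limma FDR = 0.0529), WT +C+L replicate 2 (0.0549), WT +C+L replicate 3 (0.0505) or WT +C-L replicate 3 (0.0511).

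For carbon, 0 of the 28 members passed an FDR of 0.05 (limma), where 22.5% of all probe sets did, 13.5% higher and 8.99% lower with sucrose. At an unadjusted p under 0.05 there were 2 higher members, *ycf2* and *rpl22*, and 0 lower. Of the 21552 probe sets, 4313 were higher and 2756 lower at that p. *ycf2* had a change of 0.45 ± 0.20 (limma FDR = 0.127) and *rpl22* of 0.15 ± 0.07 (0.136). The next members in order of p were *rps16* (0.17 ± 0.10), and on the lower side *rpl23* (-0.14 ± 0.10), *clpP* (-0.11 ± 0.09) and *rps12* (-0.09 ± 0.08). For 27 members the change was within 0.25 of 0 on the log2 scale, and over all 28 the 95% intervals ran at most from -0.47 to 0.88. Within each genotype and light level no member passed either, where 1.53% of all probe sets did in *sdg8-5* +L, 13.8% in *sdg8-5* -L, 1.25% in WT +L and 4.57% in WT -L. Without WT -C-L replicate 3, *ycf2* passed (0.56, limma FDR = 0.0386), and without the 8 arrays of number 1, *rpoB* and *rps14* did.

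The 48 other plastid genes likewise had 0 carbon calls in either direction, also 0 at an unadjusted p under 0.05, and a median change of -0.01. Carbon by light interactions were called for 0 members and 0.339% of all probe sets. The lowest p for a member was that of *ycf2* (limma FDR = 0.426).

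For light, 2 of the 28 members were higher (7.14%) and 0 lower, where 36.8% of all probe sets passed, 19.8% higher and 17% lower. At an unadjusted p under 0.05 there were 3 higher members and 1 lower, against 5054 higher and 4325 lower of the 21552 probe sets. *rps16*, for a small-subunit protein, read 729.6 to 1238 (median 893.3) on +L arrays and 541.8 to 870.5 (median 655.9) on -L arrays, a change of 0.40 ± 0.10 (1.32-fold, limma FDR = 0.00265). In WT without sucrose its +L arrays had 945.9, 925.9 and 860.8, against 544.6, 604.4 and 686.3 on -L arrays (0.58 ± 0.19, limma FDR = 0.0406). In *sdg8-5* without sucrose they had 746.8, 773.9 and 1013, against 541.8, 655.8 and 595.8 on -L arrays (0.49 ± 0.19, limma FDR = 0.0884). Light stood above darkness without overlap in both of these comparisons. The call in WT was lost when the arrays of any 1 of the 3 replicate numbers were left out, without WT -C-L replicate 1 or 2 or WT -C+L replicate 1, 2 or 3, with the 25S rRNA covariate and with centring on the array median or on the other plastid genes. The number of members called higher there differed from 1 in 17 of 38 alternatives. With sucrose the changes were 0.18 ± 0.19 in *sdg8-5* and 0.35 ± 0.19 in WT.

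*rps2*, a small-subunit gene next to *rpoC2*, was at 3880.2 to 5639 (median 4423) on +L arrays and 2782 to 5109 (median 4049) on -L arrays (0.22 ± 0.08, 1.17-fold, limma FDR = 0.0442). Its largest change was in *sdg8-5* without sucrose, with 5639, 5431 and 5573 on +L arrays, against 3711, 4051 and 3244 on -L arrays (0.60 ± 0.17, limma FDR = 0.0159). This call was lost when the arrays of any 1 of the 3 replicate numbers were left out, without *sdg8-5* -C-L replicate 3 and with either centring. In the other 3 combinations of genotype and carbon the change was between -0.01 and 0.19. Within *sdg8-5* without sucrose 11.4% of all probe sets were higher with light, as were 11.2% in WT without sucrose. The difference in response between genotypes did not pass for *rps2* or any other member.

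**Figure D5:**
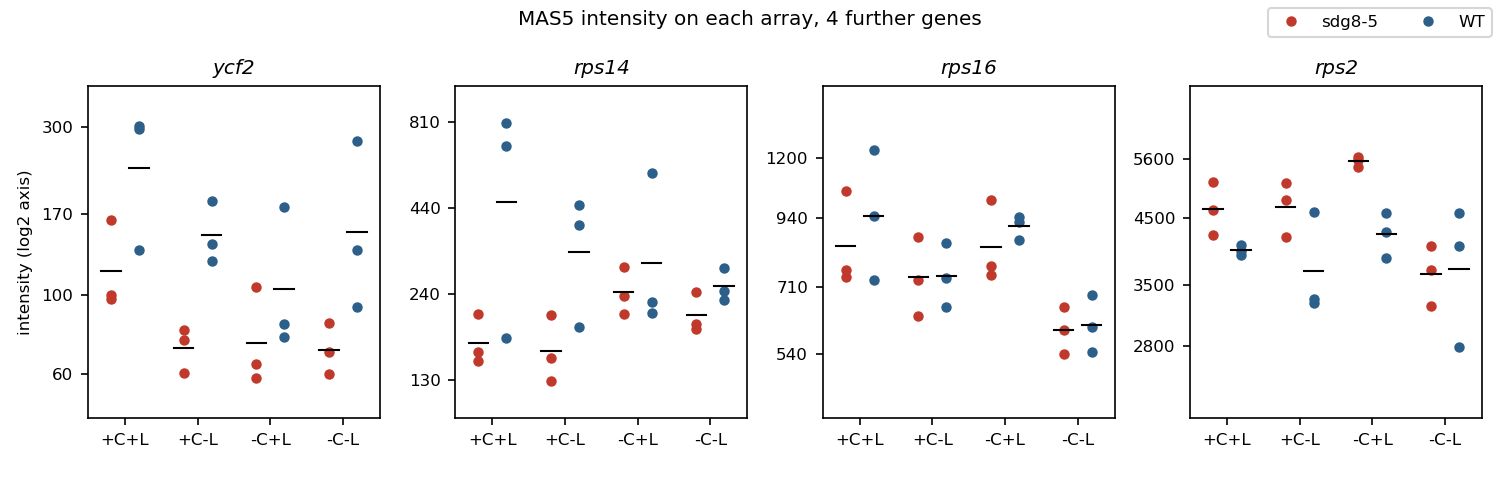
MAS5 intensity (y axes, log2 scale) of ycf2, rps14, rps16 and rps2 on each array in the 4 treatments (x axes), sdg8-5 in red left of WT in blue, with black lines for the mean of the log2 values. The ycf2 and rps14 means were lower in sdg8-5 in every treatment, which the call of both genes over the 4 treatments favoured. rps16 was lowest in -C-L in both genotypes, and rps2 was highest in sdg8-5 -C+L.

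*rps16* passed in all 24 fits that left out 1 array, and *rps2* was lost in 17 of them (limma FDR 0.0150 to 0.0810 over the 24). *rps2* passed only without WT -C-L replicate 1 or 2, WT +C-L replicate 3, WT -C+L replicate 3, *sdg8-5* +C-L replicate 1, *sdg8-5* -C-L replicate 2 or *sdg8-5* +C+L replicate 2. Without replicate number 2 neither passed (limma FDR = 0.0565 for *rps16* and 0.139 for *rps2*), and with the 25S rRNA signal as a covariate neither did. The light changes with this covariate were 0.31 for *rps16* (limma FDR = 0.577) and 0.54 for *rps2* (0.143), and the median over the members was 0.19, against 0.03 without it. The 25S signal was 371.0 to 8044 (median 503.3) on +L arrays and 1275 to 15336 (median 6856) on -L arrays, a log2 change of -2.99. Only *sdg8-5* -C+L replicate 2 read 8044, and the other +L arrays did not exceed 1196, below every -L array. Just outside the threshold for light were *ycf1* (0.28 ± 0.11, limma FDR = 0.0564), with 3795 to 6123 on +L arrays and 2952 to 6817 on -L arrays, and on the lower side *rpl23* (-0.24 ± 0.10, 0.0623). *rpl23* read 7673 to 14006 (median 10679) on +L arrays and 9999.7 to 16107 (median 12823) on -L arrays. *rps12* (-0.16 ± 0.08, 5496 to 8711 with light and 5847 to 9569 in darkness) and *accD* (-0.25 ± 0.13, 902.9 to 1870 with light and 936.5 to 2021 in darkness) followed. These ranges overlap over most of their length. The 7 neighbours that rose in *sdg8-5* had light changes between -0.03 and 0.06. The changes of *rpoA*, *rpoB*, *rpoC1* and *rpoC2* were -0.03, 0.03, -0.04 and 0.15, each smaller than its standard error.

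Among the 48 other plastid genes 3 were higher with light and 0 lower. These were *rbcL*, for the large subunit of Rubisco (0.79 ± 0.13), and *psbD* and *psbC*, for proteins of photosystem II (0.74 ± 0.16 and 0.56 ± 0.10), all with larger changes than any member. Of the 16 mitochondria-encoded genes measured, 8 were lower with light and 0 higher, and 4 were higher in *sdg8-5* than in WT (*nad4*, *matR*, *ccb382* and *cox1*, with changes of 1.53, 1.42, 0.92 and 0.39) and 0 lower.

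Few nuclear partners of these genes have a probe set listed here. Of 21 listed genes for plastid transcription, 1 was measured, AT5G15700, which encodes the phage-type polymerase RPOTmp of mitochondria and plastids. It was higher in *sdg8-5* (0.58 ± 0.19, limma FDR = 0.0394), with carbon (1.26 ± 0.19) and with light (0.99 ± 0.19). Its signal was 30.9 to 228.5 (median 176.4) on *sdg8-5* arrays and 25.6 to 174.0 (median 83.2) on WT arrays, with the lowest values of both below 40. The genotype change was uneven, at 0.29 in +C+L, 0.65 in +C-L, 1.46 in -C+L and -0.07 in -C-L, and did not pass in any of them. The light change ran from 0.28 in *sdg8-5* +C to 2.28 in *sdg8-5* -C. Of 39 nuclear genes for plastid ribosomal proteins 10 were measured. AT4G01310, for a large-subunit protein, was higher in *sdg8-5* (0.28 ± 0.09, limma FDR = 0.0294), 0 were lower, and the median change of the 10 was 0.13. AT5G24490, annotated as a 30S ribosomal protein, was lower with carbon (-1.25 ± 0.11) and with light (-0.91 ± 0.11), and 0 of the other 9 passed for either. Of 22 partners of *clpP*, *accD*, *ycf1* and *ycf2* 3 were measured, and of these *MDH*, the plastid malate dehydrogenase of the import motor, was higher with carbon (0.56 ± 0.09), while *CLPP4* and AT1G09130, for Clp subunits, did not pass for any effect.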

How the data were processed

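Total RNA of shoots was labeled with a one-cycle kit and hybridized to ATH1 arrays. The authors computed the deposited intensity values with MAS5, and the 2% trimmed mean is 500 on each of the 24 arrays. Of 22810 probe sets, 21552 that reached an intensity of 40 on some array entered the fits (62 of them controls). Log2 values were fitted with limma 3.58.1 in R 4.3.3 (a mean for each of 8 conditions, with 16 residual degrees of freedom and 1.813 prior ones), and effects were taken as contrasts. Benjamini-Hochberg adjustment ran over all 21552 probe sets, with FDR thresholds of 0.05 and, for interactions with genotype, 0.15. The number of arrays limits the precision. The labels name 3 sets of biological replicates.

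Genes were named through the probe annotation, in which 13513 probe sets have 1 gene, 503 several and 8794 none listed, and 5 probe sets of mitochondrial or shared copies of member names were left out. Mitochondria-encoded genes were taken by symbol. Gene order came from RefSeq (TAIR10.1). Members and lists were chosen with earlier results of these data known. Every member is accounted for. The rule for array values took the 3 members of lowest p in each direction for each effect and the member of highest mean signal in each role, and from each other list up to 4 genes past the threshold, while all 7 neighbouring genes were detailed after their values were seen. The procedure was tested on simulated data. Alternatives were other filters, scalings and fits, a pseudocount of 16, blocks, covariates and left-out arrays, and centring on the other plastid-encoded genes was added after the data were seen. Figures were drawn with matplotlib 3.10.9.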

Additional observations from a re-analysis of the deposited data

Results flagged for a closer look

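The 25S rRNA control probe set lies outside the measurement of messenger RNA and differed between genotypes, with a log2 change of 1.56 for *sdg8-5* over WT (limma FDR = 0.000912). It was also lower with carbon (-0.99) and with light (-2.99). Groups of 3 arrays were not searched for single outlying arrays, and no interaction with genotype passed for any of the 28 genes.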

How the results depend on the processing

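Of the 9 genotype calls (7 members higher, 2 lower in *sdg8-5*), both counts became 0 with the 25S rRNA covariate and within the arrays of lower bioC signal, and 2 higher and 0 lower members passed within those of higher signal, fits with fewer arrays. With at least 100 on at least 3 arrays 11 members were higher and with trend and robust estimation 12. Centring on the other plastid-encoded genes, chosen after seeing the data, gave 4 higher and 1 lower, and the ANOVA on untransformed values 1 lower. Leaving out arrays gave 0 to 10 higher and 0 to 2 lower members. For carbon (0 calls), 1 member (*rpl22*) was higher after quantile normalization, and 0 to 2 were when arrays were left out. For light (2 higher, 0 lower), 1 was higher and 4 lower after centring on the array median, a scaling that moved the median light change of all probe sets to -0.08, against 0.02 without it. Centring on the other plastid genes gave 1 higher and 1 lower. Lower members numbered 1 (*rpl23*) with the filter at 100, with trend and robust estimation and with the bioC block. Higher members numbered 1 within the lower bioC group, and 0 within the higher one and with the 25S covariate. Leaving out arrays gave 0 to 3 higher and 0 to 2 lower. Directions turned for 3 changes that had not passed: carbon for *rps16* within the higher bioC group (-0.0616), and light with the 25S covariate for *rps12* (0.0282) and *accD* (0.0713). The causes of these shifts, where the number of arrays does not show them, were not tested. Members with an interaction stayed at 0 in all 40 alternatives of each of the 3 interactions.

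Arrays of the same replicate number deviated together only weakly. Correlations of deviations from the condition means had a median of 0.025 over 84 pairs, with a range of -0.109 to 0.134. Pairs of different number had a median of -0.014 over 168 pairs, and 3 of these exceeded 0.1, against 6 of the 84. Of 24 arrays, 16 were closest to their own number, and the bioC groups followed the number for 1 and 3. The numbers were not treated as pairs in the main fit. The 16 arrays are a hint from the data, and not from the design. With a replicate block all 9 genotype calls remained, and light kept 1 higher member (*rps16*) and gained 1 lower (*rpl23*). With 3 arrays per condition, changes the size of the standard errors could not be resolved, and *rps14*, *rpoB* and *ycf2* varied most.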
